A study of Drosophila melanogaster with 30 samples.

Results

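Unpaired flies are the training controls of this experiment, which received the odors and the sugar reward at separate times. The question here was how the CrebB methylation profile of their mushroom bodies (MBs) differed between time interval 1 (TI-1) and time interval 2 (TI-2). The comparison used 12 of the 30 samples of the series, chosen by their labels as all unpaired samples, namely 6 with MB-Gal4>UAS-Dam-CrebB and 6 with MB-Gal4>UAS-Dam. Each Dam::CrebB sample was deposited as 1 profile of log2 ratios over the Dam-only sample, which gave 3 profiles for TI-1 and 3 for TI-2. The other samples were 12 from paired flies and 6 from naïve flies, which were not trained and whose interval is not labelled.

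All groups shared the mb247-Gal4 driver and tubGal80ts, and each sample was a pool of 50 to 100 adult heads. mb247 drives expression in Kenyon cells, so heads supplied the DNA but the Dam transgenes were aimed at the MBs. TI-1 flies were kept at 29°C from 3 h before training until 24 h after it, and were trained at 25°C. TI-2 flies were trained at 18°C and kept at 29°C from 24 h to 48 h after training. The groups therefore differed at least in time after training, in training temperature and in the length of induction, and these cannot be told apart. For 48 h memory tests the paper describes feeding after training before renewed starvation. Whether TI-2 flies were fed in this way is not stated. The chromosome names in the 3 TI-1 profiles carry a prefix that is missing in the 3 TI-2 profiles. No label says what the prefix stands for, and anything that goes with it cannot be told apart from the interval either. All naïve profiles carry the prefix too, and among the paired profiles only TI-1 replicate 1 does.

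CrebB is the fly homolog of CREB, a transcription factor that is activated through cAMP and protein kinase A and is needed for long-term memory. In Targeted DamID, a fusion of CrebB to the bacterial methylase Dam methylates adenines in GATC sites close to where CrebB binds, and Dam alone gives the background of open chromatin. A positive log2 ratio means more methylation by Dam::CrebB than by Dam-only. It is not a level of RNA, and fewer labelled cells or weaker induction cannot be told apart from less binding per cell in pooled heads.

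Each gene was given a single value, a length-weighted mean of the log2 ratio of the GATC fragments touching its body (release 6 of the genome). Of 17807 genes, 17802 had a fragment, and 17474 of these had a value other than 0 in some unpaired profile and were tested. A gene had a median of 8 fragments. The profiles hold ratios without counts, and the depth of sequencing under each of them is therefore unknown. The labels do not say whether replicates came from separate crosses, so p-values measure the spread between these samples only.

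Both replicates 3 stood apart from the other unpaired profiles. Across genes, TI-1 replicate 3 correlated with the other 5 profiles at r = 0.67 to 0.87, and TI-2 replicate 3 at r = 0.67 to 0.82. The remaining 4 profiles correlated with each other at r = 0.87 to 0.95. Genes are not independent replicates, and these values describe the profiles. Results below are given with and without both replicates 3 where they rest on them.

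No gene passed an adjusted p under 0.01 with a change between intervals above 0.2 on the log2 scale. Both numbers were taken over from the cut-offs that the study set for the FDR and the log2 ratio within a condition, and are applied here to another quantity. With limma and Benjamini-Hochberg adjustment, 0 genes were higher at TI-2 (0.0% of those tested) and 0 were lower (0.0%). No adjusted p was below 0.554. At an unadjusted p under 0.05 with the same minimum change, 1032 genes were lower at TI-2 (5.91%) and 0 were higher. In 2192 genes (12.5%) all 3 TI-1 values were above all 3 TI-2 values, and in 69 genes (0.395%) the order was the opposite. The median change over all genes, TI-2 minus TI-1, was -0.04, and it was -0.04 without both replicates 3.

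The direction of this imbalance depended on how the profiles were scaled. With each profile centred on its median, 1328 genes were lower and 744 higher without overlap. With each centred profile also scaled by its SD, these counts were 991 and 770. After quantile normalization of the 6 profiles the split turned, with 534 genes lower and 1449 higher. At an unadjusted p under 0.05 and a change above 0.2, quantile normalization still left 239 lower and 38 higher, with 0 past the adjusted threshold in each direction.

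**Figure D1:**
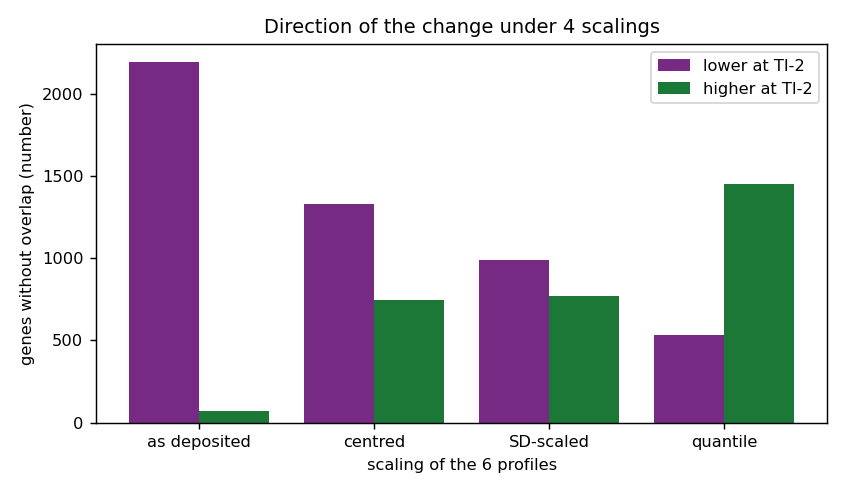
Number of genes whose 3 TI-1 and 3 TI-2 values did not overlap (y axis) under 4 scalings of the 6 unpaired profiles (x axis), split into lower and higher at TI-2. As deposited, 2192 genes were lower and 69 higher, whereas after quantile normalization 534 were lower and 1449 higher.

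The distributions of the profiles overlapped in the median. The median gene value was 0.09, 0.04 and 0.03 in TI-1 replicates 1 to 3 and -0.00, 0.07 and 0.01 in TI-2 replicates 1 to 3. In TI-1 profiles the gene values had an SD of 0.44, 0.37 and 0.39, and in TI-2 profiles of 0.35, 0.41 and 0.37, so the groups overlapped here as well. Genes under -0.2 made up 9.07%, 9.09% and 8.98% of the TI-1 profiles and 13.7%, 11.9% and 16.1% of the TI-2 profiles. This share did not overlap between intervals, with an exact two-sided permutation p of 0.10, the smallest that 3 against 3 profiles allow, and 0.60 after adjustment over 6 measures. Fragments listed at exactly 0 made up 12.4%, 14.3% and 21.6% at TI-1, compared with 18.4%, 18.9% and 20.9% at TI-2. With these fragments left out of the gene values, 1075 genes were lower at an unadjusted p under 0.05 and a change above 0.2, against 1032 with them, and 2181 were lower without overlap, against 2192.

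Genes with strong CrebB signal in naïve flies were those with the larger changes in the deposited values. The naïve profiles come from other samples than the 6 unpaired profiles. They carry the same chromosome prefix as the TI-1 profiles, however, and what goes with it cannot be told apart from this trend. Of 704 genes with a naïve mean above 1, the median change was -0.13, 114 genes (16.2%) were lower at an unadjusted p under 0.05, and 134 (19.0%) were lower without overlap. Of 5076 genes with a naïve mean between -0.2 and 0, the median change was -0.00 and 427 (8.41%) were lower without overlap. In the 424 genes below -0.5 it was -0.01, with 15 genes (3.54%) lower without overlap. None of the 5447 genes with a naïve mean above 0.2 was higher without overlap.

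Without both replicates 3, the median change above a naïve mean of 1 was -0.16. Centring left it at -0.10 (all genes -0.006), but quantile normalization gave 0.03 (all genes 0.02), so this trend depended on the scaling. In paired flies (replicates 1 and 2 of each interval), the median change of the same genes was 0.11.

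**Figure D2:**
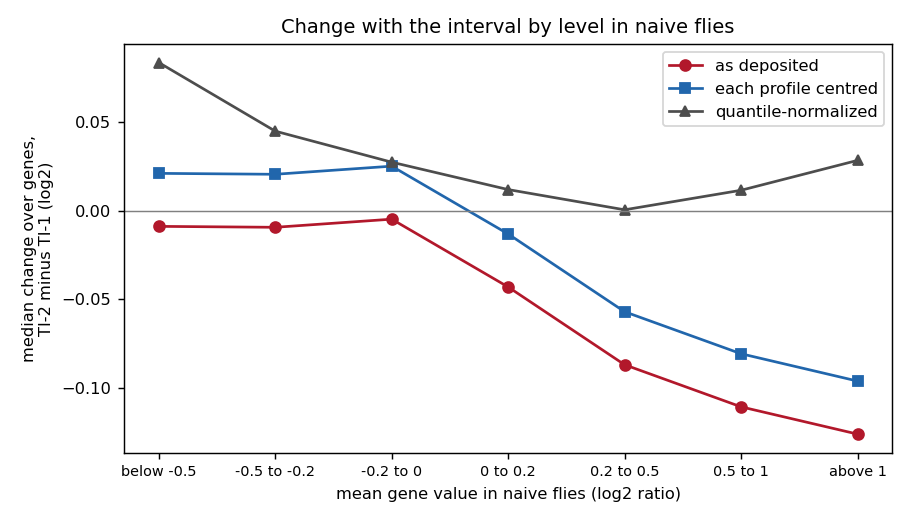
Median change over genes, TI-2 minus TI-1 on the log2 scale (y axis), in 7 classes of the mean value in naïve flies (x axis), for the deposited values and 2 other scalings. The deposited values went from -0.01 in the lowest class to -0.13 in the highest, and quantile-normalized values stayed above 0 in every class.

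A group of 958 genes with at least 5 fragments was lower at TI-2 by more than 0.2 with no overlap, which is 7.76% of the 12346 genes with that many fragments. No gene met the same rule in the other direction. Their changes ran from -0.99 to -0.20, with a median of -0.29 (the rule set the upper end). Median values were 0.42 (TI-1), 0.13 (TI-2) and 0.28 (naïve flies). In 275 of the 958 genes the mean was above 0 at TI-1 and below 0 at TI-2. All 958 kept a negative change after quantile normalization, and 503 stayed below -0.2. The genes were chosen on these same profiles, so the kept sign is no separate support.

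The 15 genes with the smallest p in this group are shown as a description, since none passed the threshold and the order was set by the same values. Each had an adjusted p of 0.554. The first by p was asRNA:ASTR (3R, 5607799 to 5609810), an antisense RNA whose 8 fragments all lie in Rga as well, so that the ratio cannot be assigned to either strand. Its values were 0.57, 0.51 and 0.53 at TI-1, compared with 0.17, 0.27 and 0.24 at TI-2, a change of -0.31 (SE 0.04).

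EndoA (3R, 18906609 to 18910755) encodes endophilin A, which acts in the recycling of synaptic vesicles. Its values were 0.71, 0.78 and 0.75 at TI-1, compared with 0.50, 0.41 and 0.46 at TI-2, a change of -0.29 (SE 0.04). The lowest TI-1 value was well above the highest TI-2 value. Rbf (X, 797090 to 801479), the retinoblastoma-family repressor of E2F, had 0.51, 0.53 and 0.60 at TI-1, compared with 0.25, 0.29 and 0.25 at TI-2, and 14 of its 21 fragments had a lower mean at TI-2.

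Tnks (3R, 25653091 to 25661286), a tankyrase, had the closest TI-1 values of the 15, at 0.77, 0.75 and 0.76, against 0.50, 0.46 and 0.36 at TI-2. Of its 29 fragments, 24 were lower in the mean and 7 did not overlap. The signal of this gene was thus spread over the gene body and not held by a single fragment. Of the 15 genes, asRNA:ASTR, CG8388 and Tnks share more than 2 fragments with a neighbour, and all 8 fragments of CG8388 lie in CG8389 too.

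Several of the 15 stand for known pathways. key encodes the regulatory subunit of the IκB kinase in the Imd immune pathway, and went from 0.12, 0.19 and 0.25 to -0.09, -0.12 and -0.11. scyl encodes an inhibitor of TOR signalling, with 0.48, 0.49 and 0.48 at TI-1, compared with 0.22, 0.25 and 0.12 at TI-2. In both genes the groups did not overlap, although only 3 of the 10 key fragments were lower in the mean. Polr3E, a subunit of RNA polymerase III, had 0.50, 0.50 and 0.67 at TI-1, compared with 0.16, 0.20 and 0.19 at TI-2.

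The remaining genes of the 15 were Nt5c, CG14340, Nulp1, Ntl, kar, f-cup and CG12773, with changes between -0.41 in CG14340 and -0.29 in Nt5c. kar, which is needed for normal eye pigment, had 0.72, 0.71 and 0.76 at TI-1, compared with 0.46, 0.29 and 0.40 at TI-2. Across the 15 genes, the change without both replicates 3 lay between -0.46 in CG14340 and -0.25 in Rbf. The smallest change of the 15 under any alternative was that of key, at -0.04.

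**Figure D3:**
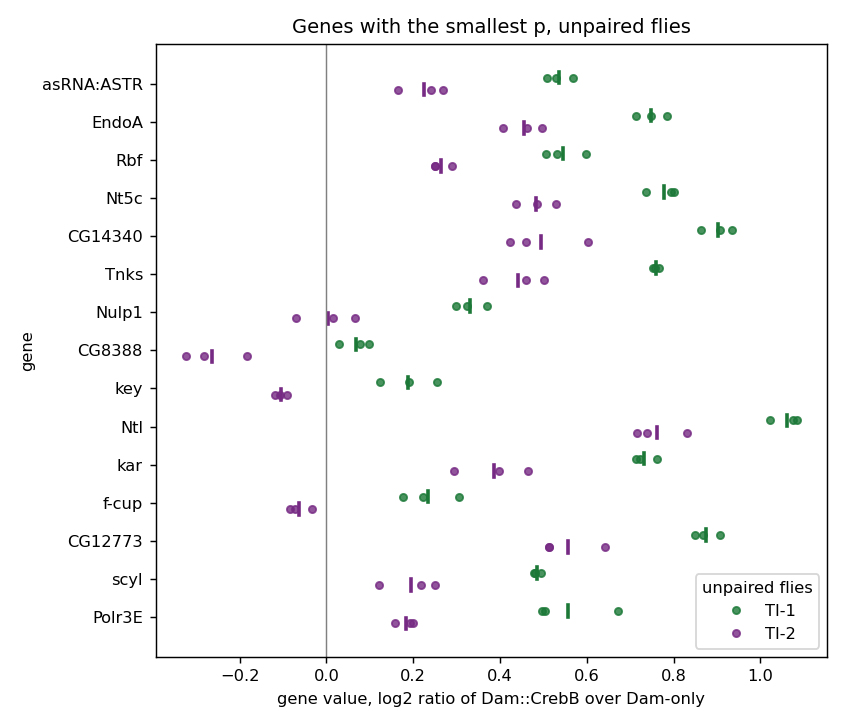
Gene values (x axis, log2 ratio) of the 15 genes with the smallest p (y axis), with 1 point per unpaired profile and a bar at the mean of each interval. The 3 TI-1 points lie above the 3 TI-2 points in each gene, as the rule required, and the points of CG8388, key, f-cup and Nulp1 lie on both sides of 0.

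Genes higher at TI-2 without overlap had small changes. The 3 with the largest, named after their values were seen, were CR46407 (0.18), CG46059 (0.17) and CG31278 (0.16). All 3 had negative ratios in every unpaired profile, so the change was toward 0. CG31278, for example, had -0.59, -0.60 and -0.73 at TI-1, compared with -0.58, -0.48 and -0.37 at TI-2.

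CrebB itself, whose coding sequence is also part of the transgene, had positive ratios in all 6 profiles. Its values were 0.92, 0.68 and 0.76 at TI-1, compared with 0.62, 0.68 and 0.44 at TI-2. The groups overlapped, and the change of -0.21 (SE 0.09) did not pass (adjusted p = 0.638 with limma).

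The 23 genes that the study took into its knockdown screen were chosen by the study on these samples, with the unpaired profiles as the reference, so their counts are not independent evidence. Of the 11 chosen for TI-2, 8 were lower at TI-2 in unpaired flies without overlap, with a median change of -0.18. That is 72.7% of the list, beside 12.5% of all genes. Of the 12 chosen for TI-1, 3 (25.0%) were lower without overlap, with a median change of -0.10. This list holds Nuak, CG43143 in the supplementary gene list, in place of the CG43134 that the text of the paper prints.

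Among the TI-2 list, esn, a LIM-domain gene that acts in dendrite patterning, had 0.17, 0.22 and 0.20 at TI-1, compared with 0.09, 0.04 and -0.05 at TI-2. unc-5, a netrin receptor, had 0.34, 0.32 and 0.50 against 0.24, 0.17 and 0.22. A lower mean at TI-2 was found in 72 of the 109 fragments of esn and in only 33 of the 71 of unc-5. The gene values of esn and unc-5 were separated between the intervals, with changes of -0.17 and -0.18 that did not pass (adjusted p = 0.554 and 0.574, limma). CG10444 had the largest change of the list, from -0.11, 0.19 and 0.09 to -0.17, -0.46 and -0.68. All 50 fragments of Pfrx, a regulator of glycolysis, lie in CG14200 too, and its change of -0.31 cannot be assigned to either gene.

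Among the TI-1 list, C3G, an activator of Rap1, had 0.49, 0.34 and 0.44 at TI-1, compared with 0.27, 0.31 and 0.15 at TI-2. cic, a transcriptional repressor downstream of Ras signalling, had 0.30, 0.20 and 0.13 against 0.20, 0.19 and 0.06, with overlap. HERC2, a ubiquitin ligase, had -0.09, -0.18 and -0.32 against -0.03, 0.04 and -0.52, and TI-2 replicate 3 was the lowest of the 6. The change of HERC2 was 0.03 with all profiles and 0.14 without both replicates 3.

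**Figure D4:**
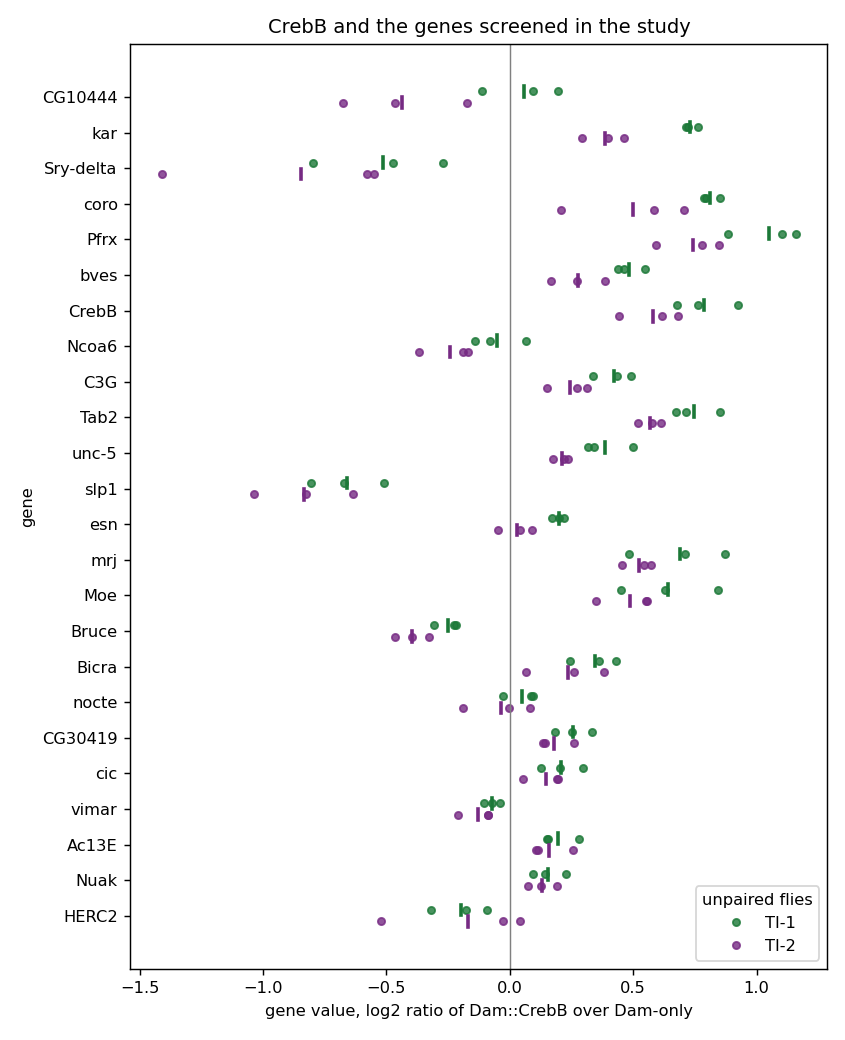
Gene values (x axis, log2 ratio) of CrebB and the 23 screened genes (y axis, ordered by change), with 1 point per unpaired profile and a bar at the mean of each interval. CG10444 and kar head the order with changes of -0.50 and -0.35, and HERC2 closes it with 0.03.

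The other gene lists were read against the same background. Of 26 lists, 23 had a median change below 0 in the deposited values and 4 after quantile normalization. Between these scalings the median over all genes moved from -0.04 to 0.02, so this change of sign was not particular to the lists. Of 92 cytosolic ribosomal protein genes, 14 (15.2%) were lower at an unadjusted p under 0.05 and a change above 0.2, and 17 (18.5%) were lower without overlap. Over all genes these shares were 5.91% and 12.5%. The median change of the ribosomal protein genes was -0.13 and remained below 0 under centring (-0.10) and quantile normalization (-0.05). RpL6 had the largest change, from 0.70, 0.93 and 1.41 to 0.20, 0.47 and 0.34. RpS6 had 0.33, 0.35 and 1.03 against -0.01, -0.01 and 0.34, where TI-2 replicate 3 lay inside the TI-1 range.

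Of 87 oxidative phosphorylation genes 14 (16.1%) were lower without overlap, beside 12.5% of all genes. Their median change was -0.07, and 0.004 after quantile normalization, beside 0.025 for all genes. Of 48 proteasome genes 9 (18.8%) were lower without overlap. The median change of -0.03 was near that of all genes (-0.04), and was 0.02 after quantile normalization. The largest change was that of Prosbeta7, a subunit of the core particle, with 0.18, 0.43 and 0.53 against -0.08, -0.17 and -0.25. In the insulin, TOR and fasting list, where the share was below the 12.5% of all genes, 2 of 23 members (8.7%) were lower without overlap. These were S6k, the kinase downstream of TOR, with 0.87, 0.90 and 1.02 against 0.67, 0.64 and 0.36, and rictor, a subunit of TOR complex 2, with 0.31, 0.35 and 0.38 against 0.16, 0.14 and -0.11.

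Circadian clock genes, with a naïve median of 0.35, had 5 of 16 members (31.2%) lower without overlap. The share was 12.5% for all genes and 18.6% for genes with a naïve mean between 0.2 and 0.5. Among the 5, cyc, the partner of Clock, had -0.18, -0.22 and -0.27 at TI-1, compared with -0.39, -0.37 and -0.43 at TI-2. cry, the blue-light photoreceptor, had 0.51, 0.30 and 0.34 against 0.29, 0.28 and -0.02. The median change of the list was -0.08, and 0.017 after quantile normalization. For all genes these medians were -0.04 and 0.025, and for genes with a naïve mean between 0.2 and 0.5 they were -0.09 and 0.0006. Of 8 Hox genes, 3 (37.5%) were lower without overlap, beside 12.5% of all genes. Changes in this list were no larger in size than the -0.10 of Dfd.

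Among the 19 genes of the cAMP, PKA and CREB list, 2 (10.5%) were lower without overlap, a share below the 12.5% of all genes. rut, the adenylyl cyclase of the classical learning mutant, had 0.34, 0.20 and 0.31 at TI-1, compared with 0.18, 0.17 and 0.08 at TI-2. Pde8, a phosphodiesterase, had 0.50, 0.53 and 0.46 against 0.45, 0.38 and 0.02, and TI-2 replicate 3 was far below the rest. Of 12 activity-regulated genes 1 (8.33%), cbt, was lower without overlap, with 1.44, 1.38 and 1.36 against 1.09, 1.29 and 0.94, and all 12 had a lower mean at TI-2, as did 67.5% of all genes and 81.3% of genes with a naïve mean between 0.5 and 1. The median change of this list was -0.09, and 0.026 after quantile normalization, beside -0.04 and 0.025 for all genes. For genes with a naïve mean between 0.5 and 1 these medians were -0.11 and 0.012.

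Of 20 synaptic vesicle and active zone genes, 3 (15%) were lower without overlap, beside 12.5% of all genes. These 3 were Rop, Liprin-alpha and lap. Rop, which binds syntaxin at the synapse, had 0.15, 0.22 and 0.42 against 0.04, 0.13 and -0.06. Of 31 ion channel genes 1 (3.23%) was lower without overlap, and of 17 monoamine receptors 0. Members of both groups had medians close to all genes, at -0.01 and -0.02. Chemosensory receptor genes, which had a naïve median of -0.16, had a median change of 0.02, with 7 of 186 (3.76%) lower and 3 (1.61%) higher without overlap. Over all genes these shares were 12.5% and 0.395%. In genes with a naïve mean between -0.2 and 0 they were 8.41% and 0.887%.

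Of 23 heat shock genes, 3 (13%) were lower without overlap, which is close to the 12.5% of all genes, and 0 were higher. Their median change was -0.07, and -0.01 after quantile normalization. Hsp83, the fly Hsp90, had -0.10, 0.01 and 0.05 against -0.12, -0.11 and -0.31, which did not overlap. Single fragments carried the smallest genes: mir-9b, mir-79 and mir-306 share 1 fragment, with 0.28, 0.56 and 1.84 at TI-1, compared with 0.54, 0.01 and -0.47 at TI-2, and are 1 measurement.

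Marker genes of the cell types of a head were compared as a description. The ratio is not a level of RNA, so these values cannot show which cells carried the transgenes. Kenyon cell markers had a naïve median of 0.33, glial markers 0.30, photoreceptor markers -0.06, fat body and haemocyte markers -0.07 and muscle markers -0.21. Of 16 Kenyon cell markers 4 (25.0%) were lower without overlap, with a median change of -0.06. The share was 12.5% for all genes and 18.6% for genes with a naïve mean between 0.2 and 0.5. Among the markers, prt, a vesicular transporter of the MBs, had 0.44, 0.50 and 0.85 against 0.33, 0.24 and 0.21. Of 13 glial markers 2 (15.4%) were lower without overlap, beside 12.5% of all genes, with a median change of -0.12 that was -0.06 without both replicates 3. After quantile normalization the medians were 0.017 for Kenyon cell markers and 0.010 for glial markers, beside 0.025 for all genes. Both lists thus lay below all genes under either scaling (all genes -0.04 as deposited). So did genes with a naïve mean between 0.2 and 0.5, at -0.09 as deposited and 0.0006 after quantile normalization. Kenyon cell markers lay above that class under both scalings. Glial markers lay below it as deposited and above it after quantile normalization. List medians of glial markers ran from 0.23 to 0.38 at TI-1 and from 0.06 to 0.31 at TI-2, and the part of glia in the results was not tested.

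**Figure D5:**
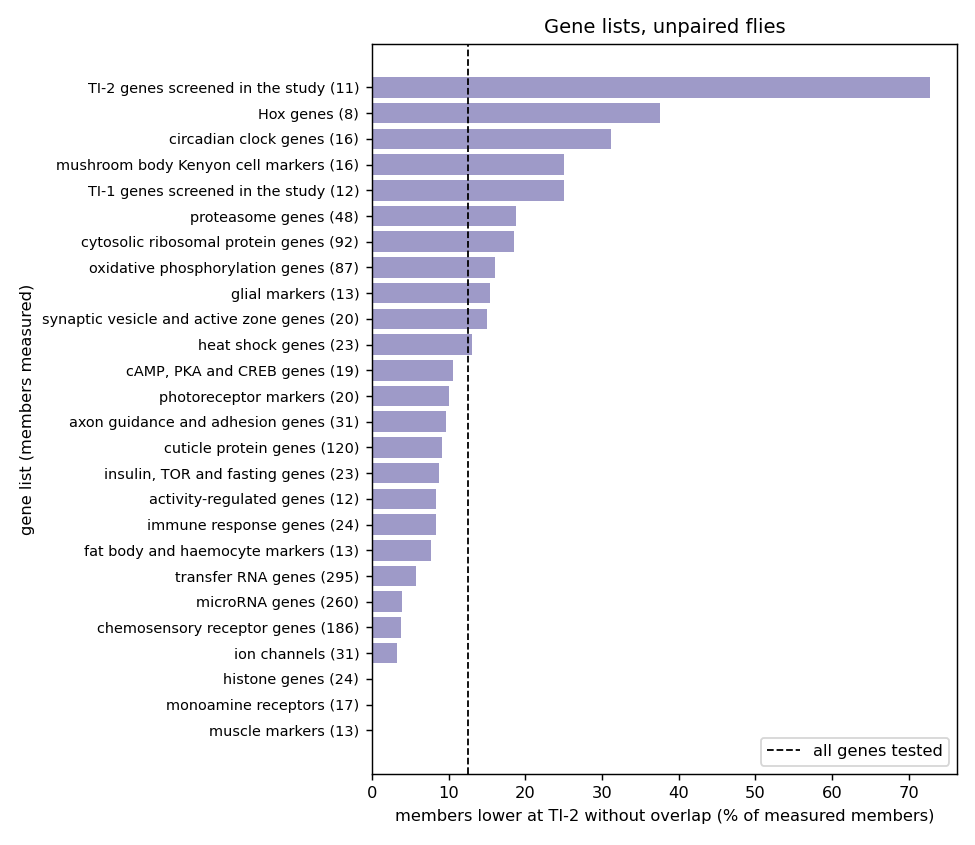
Share of the measured members of each gene list whose TI-2 values were all below their TI-1 values (x axis, %), with the number of members in brackets (y axis) and a dashed line at the 12.5% of all genes. The TI-2 genes screened in the study stand at 72.7% and were chosen on these samples.

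By chromosome, the median change was -0.07 on X, -0.02 on 2L, -0.04 on 2R, -0.03 on 3L, -0.04 on 3R and 0.01 on chromosome 4. Over the 9 pairs of a TI-1 and a TI-2 profile, the X median ran from -0.18 to 0.02 and was below 0 in 8 pairs, while the median of all genes ran from -0.11 to 0.02 and was below 0 in 7. Without both replicates 3 it was -0.03 on X, against -0.04 for all genes, so the lower X value rested on these profiles. Of 2647 X genes 421 (15.9%) were lower without overlap, and of 114 genes on chromosome 4, 2 (1.75%), beside 12.5% of all genes.

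At the level of GATC fragments, limma found 0 of 340106 past the threshold in each direction. At an unadjusted p under 0.05 and a change above 0.2, 5711 fragments were lower at TI-2 (1.68%) and 77 were higher (0.0226%). Fragments that overlap genes were lower in 1.92% of cases and fragments outside genes in 0.76%. After quantile normalization 1597 were lower and 982 higher. Without overlap, 12992 fragments were lower and 3665 higher in the deposited values. This split turned after quantile normalization, with 4887 lower and 9760 higher.

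Some of the fragments lay next to each other. The deposited values held 56 runs of at least 5 adjacent fragments, each fragment lower by more than 0.2 without overlap. In the other direction there was 1 such run. These were among 6559 lower and 123 higher runs in total. The longest held 9 fragments over 1779 bp, at X:19497983-19499761 within Pfrx and CG14200, with means of 1.42, 1.42 and 2.63 at TI-1, compared with 1.17, 1.04 and 0.82 at TI-2. A run of 7 fragments over 3191 bp, at 2R:9577246-9580436, overlapped parts of Nt5c and Not1. The run in the other direction, 5 fragments in hth, a homeobox gene, went from -0.17, -0.35 and -0.65 to 0.00, 0.21 and -0.06.

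Paired flies allowed the same contrast in other samples. Paired TI-1 replicate 3 stood apart, with a slope of 0.07 on the naïve values against 0.87 and 0.61 for TI-1 replicates 1 and 2. In paired replicates 1 and 2, 766 of the 958 genes (80.0%) had a lower mean at TI-2, against 53.4% of all 17474 genes, and their median change was -0.07 against -0.00. Of the 958 genes, 89 (9.29%) were lower by more than 0.2, against 2.63% of all genes. The 17474 genes include those with fewer than 5 fragments, so they are not a matched background for the 958. Of the paired replicates 1 and 2, only TI-1 replicate 1 carries the chromosome prefix, so this contrast shares that difference in part. With all 6 paired profiles the gap was smaller, at 86.5% of the 958 genes and 79.2% of all genes with a lower mean. Without overlap, 1 of the 958 (0.104%) was lower, against 35 of all genes (0.2%).

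Whether the change with the interval differed between unpaired and paired flies was tested as an interaction over 12 profiles. With limma 0 genes passed the threshold. At an unadjusted p under 0.05 and a difference above 0.2, 37 genes (0.212%) had a lower and 1 (0.00572%) a higher change in unpaired flies. With every replicate 3 left out, 201 were lower and 55 higher, and 0 passed the adjusted threshold. None of the changes above was shown to be particular to unpaired flies.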

How the data were processed

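Targeted DamID of adult heads was analysed. With the damid pipeline, the authors aligned and extended first reads, normalized binned counts, added pseudocounts and deposited log2 ratios (Dam::CrebB to Dam-only) per GATC fragment. Pseudocounts pull weak fragments toward 0, and depth is unknown. The deposited gene lists hold the authors' own comparisons and were not used.

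Gene values (RefSeq positions, release 6) were fitted with limma 3.58.1 in R 4.3.3 (lmFit, eBayes, two-sided, Benjamini-Hochberg), and single values were compared by exact permutation (scipy 1.17.1). Scripts were tested on simulated data. Named genes were up to 15 lower and 15 higher by the smallest p among genes with at least 5 fragments, a change above 0.2 and no overlap, CrebB, up to 4 members per list with the largest change, and all screened genes. Members and lists were chosen with earlier results of these data known. Alternatives were other scalings, filters, thresholds and fits, a replicate block, and left-out replicates. Sequences were not analysed here.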

Additional observations from a re-analysis of the deposited data

How the results depend on the processing

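The adjusted counts of genes, fragments and interactions were 0 under every alternative run, so nothing was called that could be lost. At an unadjusted p under 0.05, the genes lower at TI-2 numbered 1032 and became 608 with an unweighted mean, 483 with SD scaling, 239 after quantile normalization and 21 with all 15 profiles in a single fit. Leaving out 1 replicate gave 717 to 1365. The count of higher genes, 0, became 8 with centring, 3 with SD scaling, 38 after quantile normalization, 2 with no minimum change and 11 without both replicates 3, and 0 to 44 with 1 replicate left out. Genes lower without overlap (2192) became 1328, 991 and 534 with centring, SD scaling and quantile normalization, and those higher (69) became 744, 770 and 1449, and 104 with an unweighted mean.

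Replicate numbers are not known to pair the intervals. Deviations of same-numbered profiles from their group mean correlated at -0.28, 0.02 and 0.21, and those of differently numbered profiles at -0.32 to 0.43. Deviations within a group of 3 sum to 0, so these values cannot decide whether samples were paired. With the replicate block, 862 genes were lower and 2 higher at an unadjusted p under 0.05, and 0 passed after adjustment.

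For the 60 genes named in the text or plotted singly, 938 of 955 values kept their sign. Many of these genes were chosen by their change in the same profiles, so the kept signs are no separate support. Quantile normalization reversed Ac13E (0.040), CG30419 (0.010), Nuak (0.039), cic (0.0096) and slp1 (0.049). SD scaling reversed Ac13E (0.0039) and Nuak (0.012), and centring Nuak (0.0043). Without both replicates 3, Sry-delta (0.070), nocte (0.0098) and slp1 (0.0067) reversed. With 1 replicate left out, HERC2 lay between -0.079 and 0.204, Ac13E between -0.083 and 0.0091, and Nuak between -0.056 and 0.0099. The cause was not tested. Leaving out both replicates 3 and counting at an unadjusted p or without overlap were chosen after seeing the data. Unknown depth limits the reading of ratios near 0.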
